A study of Mus musculus with 27 samples.

Results

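Clustered protocadherins were followed as a gene family in the cortex of 5xFAD mice. The family was taken as every gene symbol that begins with Pcdha, Pcdhb or Pcdhg and lies above 0 FPKM (sequenced fragments scaled to gene length and library depth) in at least 14 of 27 libraries. Of 26264 gene symbols, 58 carried such a name and 55 met the minimum. These 55 members comprised 11 genes of the alpha cluster, 22 of the beta cluster and 22 of the gamma cluster. Just inside the minimum was Pcdhb1, above 0 in 20 libraries, and just outside was Pcdha6, above 0 in 4 libraries. The other 54 members were above 0 in all 27 libraries. Pcdha4 and Pcdha7 were listed at 0 in every library.

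RNA was sequenced from a block of about 1 mm3 of cortex of female 5xFAD mice, a model of Alzheimer's disease whose transgenes are driven by the neuronal Thy1 promoter. All mice were 16 weeks old, all carried the 5xFAD genotype, and all received a stereotaxic microinjection into the cortex 24 h before tissue was taken. The solution was vehicle (DMSO and a cyclodextrin in saline) or 10 mM of R33 or R55, which are thiophene thioureas described as pharmacological chaperones of retromer, the endosomal complex built around VPS35. The injected and the contralateral hemisphere of each mouse gave separate libraries. Vehicle was given to 4 of the mice, R33 to 5 and R55 to 5, and 1 of those given R33 (AE) was represented by its injected hemisphere only. Uninjected mice and mice without the transgenes were not compared here, so vehicle controls share the injury and the genotype with both drug groups. Mice are named by the letters in their labels.

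Clustered protocadherins are cadherin-like adhesion proteins encoded side by side in tandem arrays. Single neurons switch on a small, largely random set of the alternate promoters with the help of CTCF, cohesin and distal enhancers, while the C-type genes at the ends of the alpha and gamma arrays are used more broadly. The proteins pair on the membrane and recognise the same combination on a facing membrane, which is known to underlie self-avoidance of dendrites and axons of the same neuron, and gamma members are also needed for the survival of interneurons. In the alpha and gamma arrays each variable first exon is spliced to constant exons that all genes of the array share, and beta genes are made of a single coding exon with no shared part. In a block of cortex, many neurons with different choices are averaged.

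In the GENCODE annotation of GRCm39, the build to which the authors aligned, the alpha genes spanned chromosome 18 from 37063237 to 37320716, the beta genes from 37397991 to 37657532 and the gamma genes from 37794846 to 37975014, all on the plus strand. The shared exons were 2866 bp long in the alpha cluster and 2210 bp in the gamma cluster. The gene lengths recovered from the deposited values had a median of 5296 bp for alpha, 3417.5 bp for beta and 4694 bp for gamma members, so alpha and gamma lengths included the shared exons. How fragments in shared exons were counted is not stated. In this annotation the gene models Gm37388 and Gm38666 run from the alpha into the gamma array and overlap Pcdha6, Pcdha7 and all 22 gamma members, and which model received a fragment in the overlap is not stated. A listed 0 is therefore not read as absence of RNA. Pcdhb21 and Pcdhb22 overlap each other at their ends and members resemble one another in sequence, so fragments that could belong to more than a single member are uncertain.

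Libraries held 15932196 to 38077026 fragments, and members received 7209 to 25558 of them. Neuronal markers were high throughout, with Snap25 between 1089 and 2110 FPKM and the cortical excitatory marker Slc17a7 between 312 and 708 FPKM. Markers of neighbouring tissue varied widely, with Ttr of the choroid plexus from 2.09 to 1616 FPKM and Ppp1r1b of striatal neurons from 24.9 to 150 FPKM. In such bulk tissue, fewer cells of a type and less RNA per cell cannot be told apart. Replicates were separate mice, and hemispheres of the same mouse entered the fits as separate libraries. For 4 members the median was under 50 fragments per library, so counting error weighs most on these.

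A pair of C-type genes of the gamma cluster had the highest levels of the family. Pcdhgc5, which binds GABA-A receptors and appears late in brain maturation, had the highest level at 21.6 ± 4.47 FPKM (mean over 27 libraries, SD over 14 mice), with a lowest, median and highest library at 6.76, 22.7 and 31.5 FPKM. Pcdhgc3, an Axin1 partner that promotes dendrite branching, followed at 16.4 ± 3.42 FPKM and ran from 7.12 to 23.4 FPKM. Pcdhgc5 lay above Pcdhgc3 in 21 of 27 libraries and in 12 of 14 mice, so their order did not hold in every animal. The ratio of Pcdhgc5 to Pcdhgc3 had a median of 1.34 and ran from 0.790 in the contralateral hemisphere of vehicle-treated mouse J to 3.05 in that of vehicle-treated mouse L. Together they made up 24.3 to 33.9% of the summed FPKM of all members.

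Pcdhac2, the last alpha gene and a mediator of serotonergic axon tiling, was the next at 6.06 ± 1.17 FPKM, below Pcdhgc3 in all 27 libraries. Pcdhgc4, the gamma isoform required for interneuron survival, reached 2.01 ± 0.417 FPKM. Pcdhac1, the other alpha C-type gene, reached only 0.743 ± 0.161 FPKM. The 5 C-type genes thus spanned ranks 1 to 45 of the 55 members, and their combined share of the summed FPKM was narrow across libraries, from 31.4 to 38.9%.

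Among the alternate and beta genes the levels were lower and closer together. In the beta cluster Pcdhb9 (5.35 ± 0.660 FPKM), Pcdhb17 (4.75 ± 0.531 FPKM) and Pcdhb12 (3.31 ± 0.479 FPKM) led, and Pcdhb1 was the lowest member of all at 0.039 ± 0.032 FPKM with a median of 2 fragments per library. In the gamma cluster Pcdhga11 (4.44 ± 0.761 FPKM), Pcdhga12 (3.85 ± 0.559 FPKM) and Pcdhga6 (3.22 ± 0.604 FPKM) led the alternates, and Pcdhgb8 was lowest at 0.520 ± 0.096 FPKM. Neighbours in this order overlapped. Pcdhac2 exceeded Pcdhb9 in 19 of 27 libraries, Pcdhb17 exceeded Pcdhga11 in 20, and Pcdhb20 exceeded Pcdhga6 in 13.

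Alpha alternates were the lowest group. Pcdha12, the alternate nearest to the C-type genes, stood at 1.77 ± 0.391 FPKM, Pcdha5 at 0.811 ± 0.202 FPKM and Pcdha10 at 0.718 ± 0.229 FPKM, and Pcdha8 at 0.147 ± 0.048 FPKM with a median of 20 fragments. A mean of at least 1 FPKM was reached by 2 of 11 alpha, 18 of 22 beta and 19 of 22 gamma members. Part of this order depends on the length used. If only the unshared part of each gene collected fragments, the level per unshared kilobase would be 40.6 for Pcdhgc5, 12.1 for Pcdhac2, 3.90 for Pcdha12 and unchanged at 5.35 for Pcdhb9, which would move Pcdhb9 from rank 4 to rank 9 and Pcdha12 from rank 27 to rank 16. Pcdhgc5, Pcdhgc3 and Pcdhac2 held ranks 1, 2 and 3 on both scales.

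**Figure D1:**
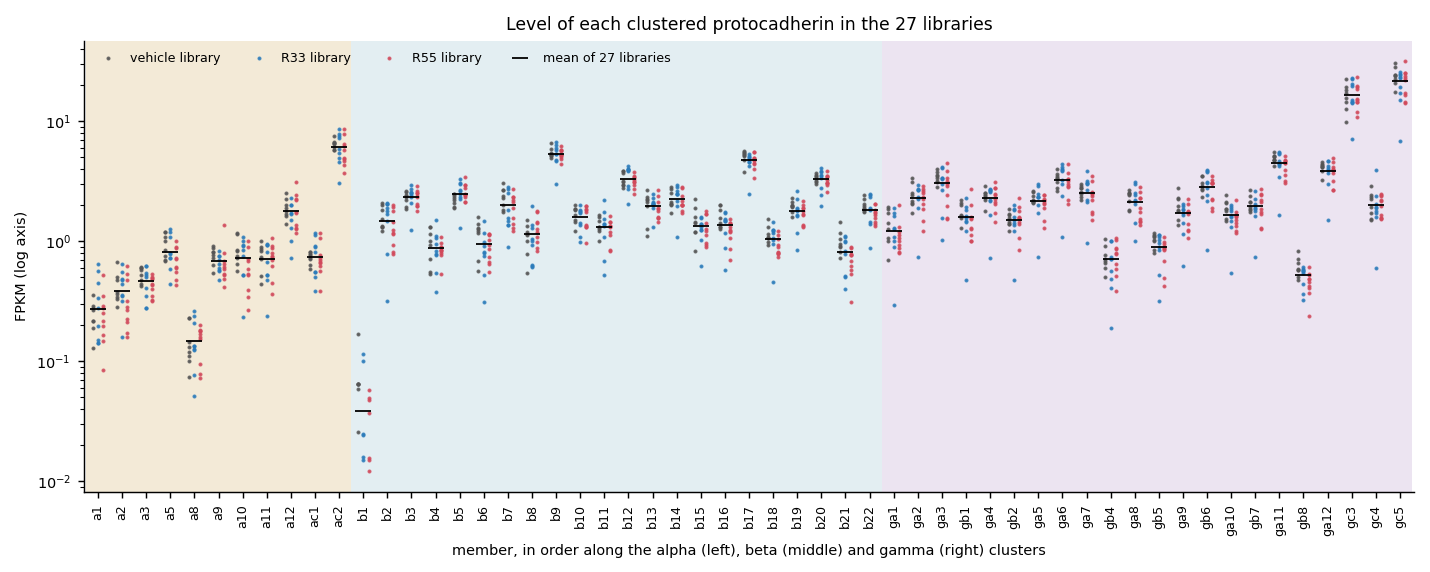
Level of each of the 55 members (horizontal axis, in order along the clusters, shaded alpha, beta and gamma) in FPKM on a log axis; each point is 1 library, coloured by treatment, the black bar is the mean of 27 libraries, and the 7 libraries with Pcdhb1 at 0 are not drawn. Pcdhgc5 at 21.6 and Pcdhgc3 at 16.4 FPKM stand at the end of the gamma cluster, and Pcdhb1 at 0.039 FPKM is lowest.

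Members tended to be high or low in the same libraries. The SD over mice was 11.2 to 84.2% of the mean, with a median of 20.8% (23.6% for alpha, 17.9% for beta and 20.7% for gamma members). As a description across 27 libraries, of which hemispheres share a mouse, the Pearson correlation of log2(FPKM + 0.1) between pairs of members had a median of 0.616 over 1485 pairs, and was highest within the gamma cluster at 0.756. Without the injected hemisphere of R33-treated mouse AD and the contralateral hemisphere of R55-treated mouse Q the median was 0.407 over all pairs, and the gamma cluster (0.487) was no longer highest, with the alpha cluster at 0.502 and the beta cluster at 0.411.

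In the injected hemisphere of R33-treated mouse AD, all 55 members lay below their own mean over the 27 libraries, and 45 of them had their lowest value of all libraries there. The summed FPKM of the gamma cluster was 28.7 in this library, against 53.2 to 104 in the other 26. The beta cluster summed to 22.2 and the alpha cluster to 6.18 FPKM, each the lowest of all libraries. The clusters differed in size of the deviation. The median deviation from the member means on the log2 scale was -1.41 for gamma, -0.92 for beta and -0.76 for alpha members, and Pcdhgc5 stood at 6.76 and Pcdhga6 at 1.09 FPKM. The share of the C-type genes, 31.4%, was still within the range of other libraries.

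The contralateral hemisphere of the same mouse was also low, with a family median of -0.33 and 52 of 55 members below their mean. Among the contralateral libraries of R55-treated mice, those of Q (median deviation -0.47), AB (-0.39) and AA (-0.22) were low, with 51, 55 and 43 members below their mean. In AA the hemispheres differed little, with a median injected minus contralateral difference of 0.10 over members. The injected hemisphere of Q had the highest family median of all libraries, 0.31, and held the highest value of 11 members. All 8 vehicle libraries lay between -0.05 and 0.24.

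**Figure D2:**
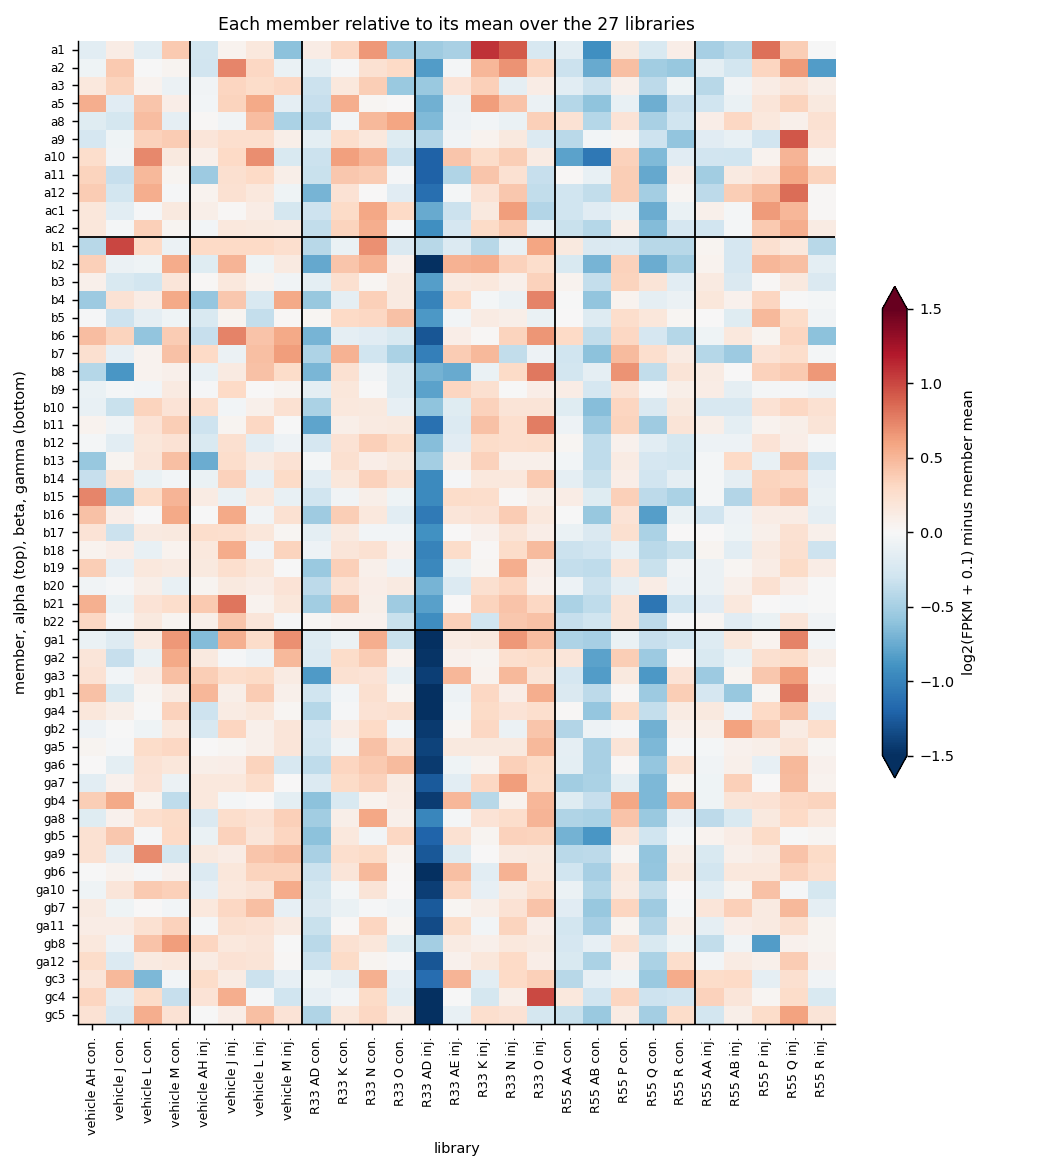
Each member (rows, alpha at the top, then beta and gamma) in each library (columns, grouped by treatment and hemisphere; con., contralateral; inj., injected); colour is log2(FPKM + 0.1) minus the member's mean over 27 libraries, drawn up to 1.5 in either direction. The column of R33-treated mouse AD, injected hemisphere, is low in all 55 members, and the contralateral columns of R55-treated mice Q and AB are low in 51 and 55.

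A pair of these libraries also differed in a property of the whole transcriptome. Across the 18580 genes tested, the deviation of each gene from its mean was regressed on log2 gene length in every library. The slope was -0.188 in the injected hemisphere of AD and -0.161 in the contralateral hemisphere of Q, so longer genes were lower in these libraries, and between -0.052 and 0.063 in the other 25. The same libraries held 29458044 and 31710083 fragments, and the part of depth or RNA quality was not tested. The paper reports RNA integrity only as a minimum that all samples exceeded, without values by library. Summed non-clustered protocadherins, a list of 12 related genes outside the clusters, were lowest in this pair of libraries as well, at 56.2 and 86.0 FPKM against 89.0 to 146 FPKM in the others. In the injected hemisphere of AD the summed meningeal fibroblast markers (Dcn, Lum, Col1a1 and Col1a2) reached 49.2 FPKM, the highest of all libraries, while the mean deviation of the 5 neuronal markers was -0.07, that of the 5 cortical excitatory markers -0.16 and that of the 3 oligodendrocyte precursor markers -0.66. The 6 interneuron markers summed to 737 FPKM there, the highest of all libraries. The next highest sums were in the contralateral hemispheres of Q (693 FPKM), AA (690.3 FPKM), AD (689 FPKM) and AB (645 FPKM). These sums weigh Sst most (mean of 301 FPKM over all libraries), unlike the mean deviations of the other lists. The family was low in the libraries with these sums as well. Apart from Q, they come from mice with 2-letter labels. Interneuron markers lay above their mean in 8 of 9 libraries so labelled and in 6 of 18 with a single letter. The part of transcript length or of tissue composition in the family's level by library was not tested. For the treatment comparisons, a fit with the length trend removed was among the alternatives given at the end, where no member passed.

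**Figure D3:**
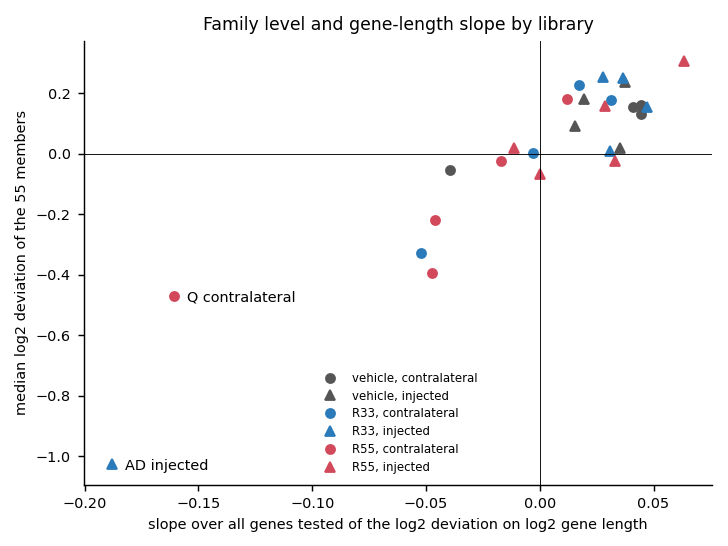
Family level by library: the horizontal axis is the slope of the log2 deviation of all genes tested on log2 gene length, the vertical axis the median log2 deviation of the 55 members; each point is 1 of 27 libraries, coloured by treatment, circles contralateral and triangles injected. The injected hemisphere of AD (-0.188, -1.03) and the contralateral hemisphere of Q (-0.161, -0.47) lie apart from the other 25 libraries.

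The first question was whether R55 changed the family against vehicle controls. No member passed the test in the fit with treatment and hemisphere (limma, Benjamini-Hochberg over 18580 genes, adjusted p under 0.05), where the background was 0.0% of all genes called. The members nonetheless leaned to lower values: 49 of 55 had a log2 fold change below 0, where 43.6% of all genes tested did, and their median was -0.16, against 0.02 over all genes. Members were high or low in the same libraries (median pairwise correlation 0.616). Counts of members, here and below, are therefore not counts of independent observations. An unadjusted p under 0.05 was reached by 6 members, all lower, where 3.67% of all genes were lower at that level and 7.76% differed in either direction. With limma-voom on the recovered fragments no member passed either, and 7 had an unadjusted p under 0.05, all lower (background 3.79%). With the mouse as a block of modelled correlation 2 had, both lower (background 2.02%). The 6 were Pcdhb21, Pcdha10, Pcdha5, Pcdhb16, Pcdhgb8 and Pcdhb1, with Pcdhb16 named after its value was seen.

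Pcdhb21, a beta gene near the end of its array, had mouse means of 1.08, 0.918, 0.860 and 1.11 FPKM in vehicle-treated mice J, M, L and AH. In R55-treated mice P, AA, Q, R and AB it had 0.840, 0.605, 0.541, 0.693 and 0.727 FPKM. The groups did not overlap. In R33-treated mice it spanned 0.456 to 1.05 FPKM, across both. The log2 fold change of R55 against vehicle was -0.50 (SE 0.18, limma adjusted p 0.578). Pcdhgb8, a B-type gene of the gamma array, was the only other member without overlap, where 1.26% of all genes had every R55-treated mouse below every vehicle control. Its vehicle mouse means were 0.527, 0.670, 0.652 and 0.621 FPKM and its R55 means 0.425, 0.390, 0.476, 0.505 and 0.474 FPKM, with a log2 fold change of -0.38 (SE 0.13, limma adjusted p 0.578).

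Among alpha alternates, Pcdha10 had a log2 fold change of -0.47 (SE 0.23) and Pcdha5 of -0.40 (SE 0.17), with limma adjusted p of 0.634 and 0.624. Their mouse means overlapped between groups. For Pcdha10 they were 0.748, 0.657, 1.16 and 0.773 FPKM in vehicle controls and 0.796, 0.438, 0.697, 0.639 and 0.399 FPKM in R55-treated mice. For Pcdha5 they were 0.844, 0.770, 1.14 and 0.970 FPKM against 0.805, 0.583, 0.718, 0.732 and 0.598 FPKM. Pcdhb16 (-0.39) and Pcdhb1 (-0.38) had adjusted p of 0.624 each in the same limma fit, and the values of Pcdhb1 rest on a few fragments.

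The C-type genes had no unadjusted p under 0.05. Pcdhgc3 was at 16.1 ± 3.83 FPKM in 4 vehicle-treated and 16.3 ± 1.95 FPKM in 5 R55-treated mice (mean ± SD over mice), with a log2 fold change of 0.01 and a 95% interval of -0.37 to 0.40. Pcdhgc5 was at 23.9 ± 4.02 and 21.2 ± 3.55 FPKM (-0.20, interval -0.61 to 0.21). Pcdhac2 was at 6.42 ± 0.424 and 5.73 ± 0.904 FPKM (-0.20, interval -0.54 to 0.14), while Pcdhac1 (-0.03) and Pcdhgc4 (-0.05) lay near 0. By group, 10 of 11 alpha, 19 of 22 beta and 20 of 22 gamma members were below 0, with medians of -0.20, -0.12 and -0.18. All 12 gamma A genes were below 0, from -0.33 to -0.06, and none of them had an unadjusted p under 0.05. The 3 leading gamma alternates stood at -0.24 (Pcdhga11), -0.14 (Pcdhga12) and -0.11 (Pcdhga6). The leading beta genes lay closer to 0, with Pcdhb9 at -0.04, Pcdhb12 at -0.05 and Pcdhb17 at -0.13. SEs of members ran from 0.11 to 0.26, and the 95% interval lay within a 1.5-fold change in either direction for 36 of 55. These SEs and intervals count hemispheres of a mouse as separate libraries and may be too narrow, so 36 may be too high.

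The hemispheres were also fitted apart. In the contralateral hemisphere alone the median of the members was -0.27 with 51 of 55 below 0 (background 41.6%), and 11 members had an unadjusted p under 0.05, all lower, where 4.14% of all genes were lower at that level and 10.1% differed in either direction. In the injected hemisphere alone, where the drug was delivered, the median was -0.05 with 33 of 55 below 0 (background 48.3%), and no member had an unadjusted p under 0.05 (background 1.91%). Pcdha5 was the furthest of those 11 by p in the contralateral hemisphere, at -0.67 (SE 0.21, limma adjusted p 0.433), and Pcdhga11, Pcdhb18 and Pcdhac2 stood at -0.42, -0.32 and -0.45. The contralateral libraries of Q, AB and AA, 3 of 5, were those with a low family level, and without the contralateral library of Q the median over both hemispheres was -0.12, with 2 members lower at an unadjusted p under 0.05 (background 3.13%).

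The second question was the same for R33, which shares the vehicle controls with the comparison above, so the values are given side by side and not as independent evidence. No member passed the test (background 0.0%) and none had an unadjusted p under 0.05 (background 5.49%), the lowest adjusted p being 0.889 (limma). Limma-voom passed none and gave 1 member, lower, an unadjusted p under 0.05 (background 2.7%). The median was -0.16 with 47 of 55 below 0 (background 44.7%). Pcdhb6 (-0.41) and Pcdhb7 (-0.38) had the lowest log2 fold changes, named after their values were seen. Pcdhb21 was at -0.33, Pcdhgb8 at -0.24, Pcdha10 at -0.19, Pcdha5 at -0.17, Pcdhgc5 at -0.34 and Pcdhgc3 at 0.01.

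These values turned on mouse AD. Without both libraries of AD the median was 0.03, 23 of 55 members were below 0 (background 48.5%) and 2 had an unadjusted p under 0.05 (background 4.0%). Without only its injected library the median was -0.02 and 30 of 55 were below 0. The other 4 R33-treated mice held Pcdhgc5 between 17.2 and 25.7 FPKM, whereas AD had 15.1 and 6.76 FPKM.

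**Figure D4:**
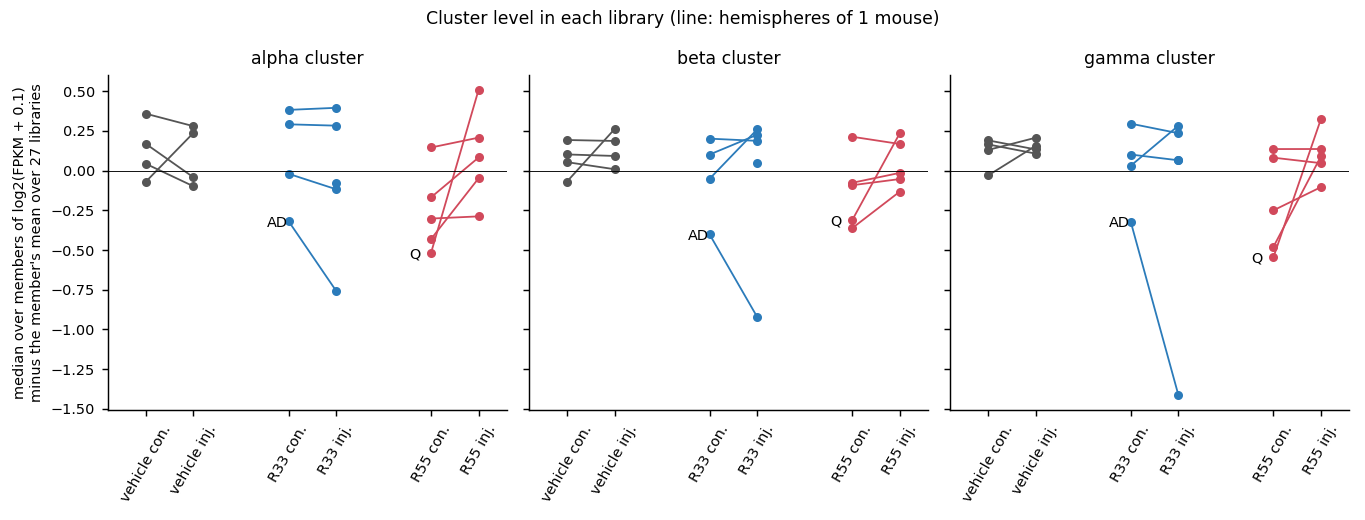
Level of the alpha, beta and gamma clusters in each library (median over the cluster's members of log2(FPKM + 0.1) minus the member's mean over 27 libraries); points are libraries by treatment and hemisphere, lines join the hemispheres of 1 mouse, and AE has no line. In the gamma cluster AD lies at -0.32 in the contralateral and -1.41 in the injected hemisphere, and Q at -0.55 and 0.32.

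R55 and R33, given at the same concentration and time, were then compared with each other. All 55 members were compared. The median was -0.01, 29 members were below 0 (background 48.3%), none passed the test (background 0.0%) and none had an unadjusted p under 0.05 (background 2.35%), also with limma-voom. The 95% interval of the difference lay within a 1.5-fold change for 48 of 55 members, and over all members the intervals reached from -0.73 to 0.70. They count hemispheres of a mouse as separate libraries and may be too narrow, so 48 may be too high. For Pcdhgc3 the interval ran from -0.37 to 0.37 and for Pcdhga11 from -0.31 to 0.32. These p-values do not show that the compounds act alike. In the contralateral hemisphere alone 49 of 55 members were lower in R55-treated mice (background 45.8%) and 5 had an unadjusted p under 0.05, all lower (background 2.63% in either direction), whereas in the injected hemisphere alone 45 of 55 were higher (background 48.1%). Mouse AD held the library with the lowest family level, so leaving it out raises the R33 side of this comparison. With mouse AD left out, 52 of 55 members were lower in R55-treated mice (background 46.0%), the median was -0.19, and 17 had an unadjusted p under 0.05, where 4.23% of all genes were lower at that level. None of the 17 passed adjustment, where 0.00538% of all genes did, and the nearest was Pcdhb18 at -0.35 (SE 0.10, limma adjusted p 0.406).

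**Figure D5:**
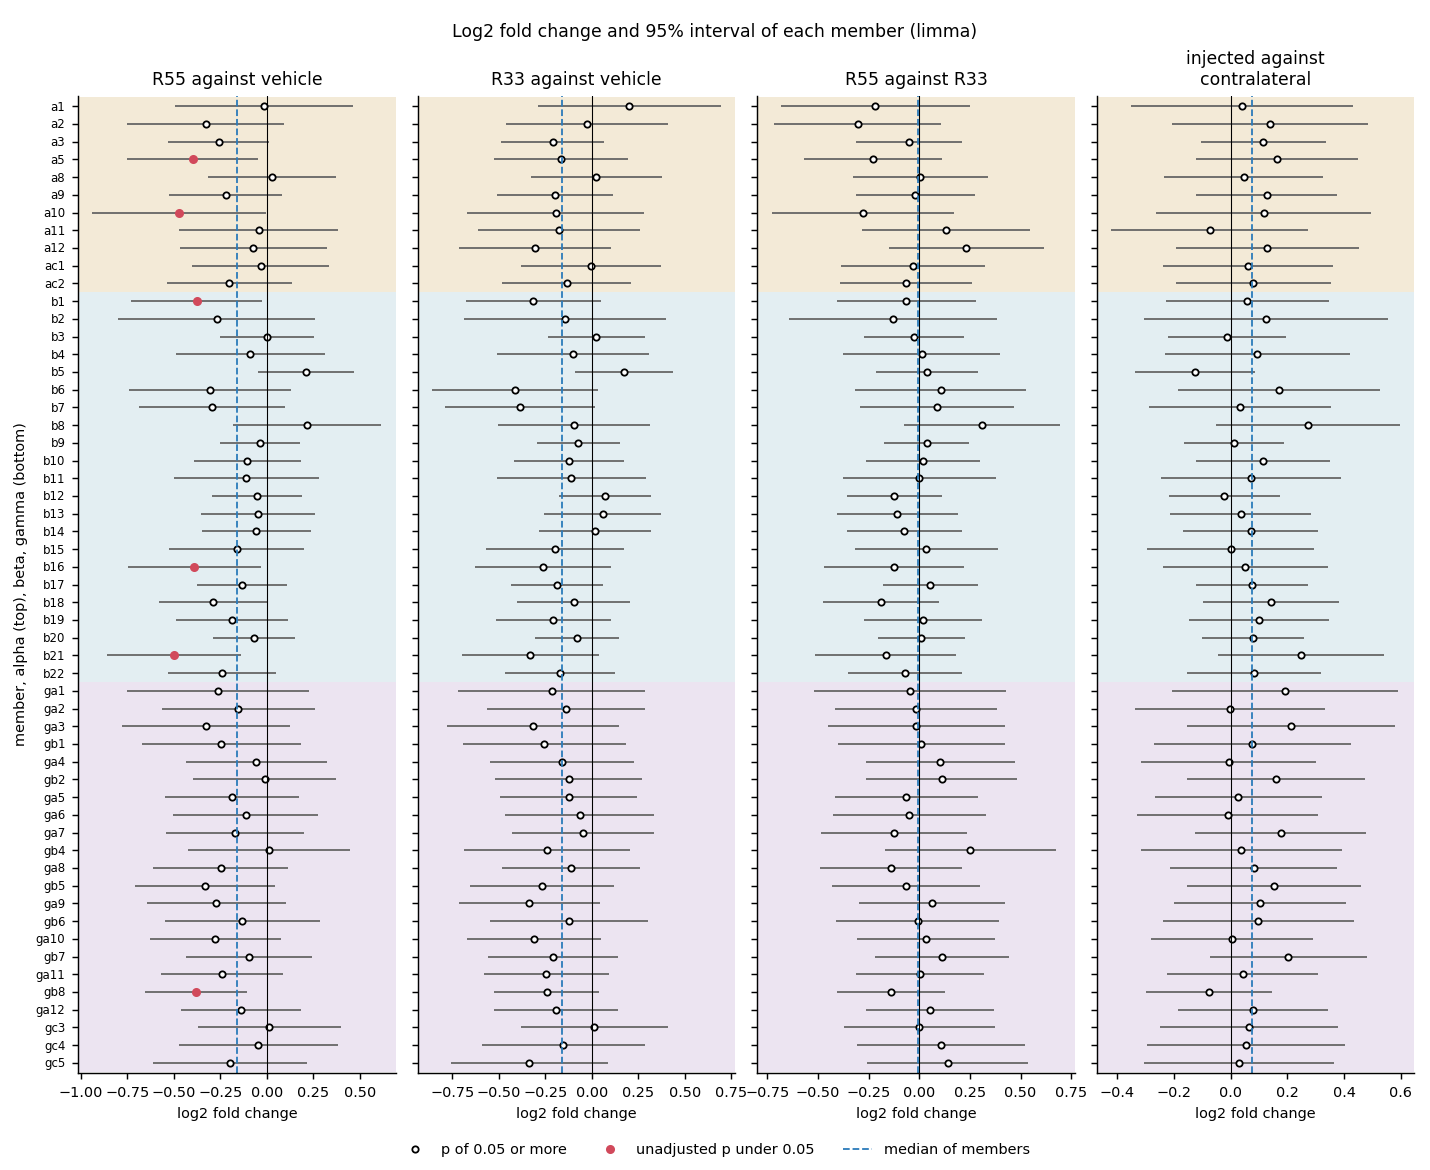
Log2 fold change of each member (rows, alpha at the top, then beta and gamma) in 4 comparisons, with the 95% interval from limma; filled red points have an unadjusted p under 0.05, the solid line is 0 and the dashed line the median of the 55 members. In R55 against vehicle 49 points lie below 0 and 6 are filled; in the other comparisons none is filled.

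The last comparison set the injected against the contralateral hemisphere. No member passed the test (background 0.0%) or had an unadjusted p under 0.05 (background 4.15%), the median was 0.08, and 47 of 55 members were higher in the injected hemisphere, where 49.3% of all genes were. Limma-voom gave the same count of 0 at both levels. With a fixed block for the mouse, possible in 13 mice, the median was 0.08 and 1 member had an unadjusted p under 0.05 (background 6.63%). Without the injected library of AD the median was 0.16 and 12 members had an unadjusted p under 0.05, all higher (background 2.77%), and without mouse Q it was 0.03 with none.

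Q and AD, the mice with the widest gaps, differed in opposite directions. In R55-treated mouse Q the median injected minus contralateral difference over members was 0.81 on the log2 scale, with 53 of 55 higher in the injected hemisphere. In R33-treated mouse AD it was -0.68, with none of 55 higher. R55-treated mouse AB followed Q at 0.47, and the other 10 mice lay between -0.12 and 0.31.

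Within R55-treated mice the median was 0.25 with 51 of 55 members higher in the injected hemisphere (background 44.4%), and 7 had an unadjusted p under 0.05 in limma, all higher, where 1.98% of all genes were higher at that level. With the mouse as a block there were 9 (background 2.59%). In all 5 mice 12 members were higher in the injected hemisphere (background 3.72%), among them Pcdhac2, Pcdhac1, Pcdha5, Pcdhga7 and Pcdhgb2. Pcdhac2 had injected values of 7.77, 4.82, 8.63, 6.40 and 5.78 FPKM in P, AA, Q, R and AB against contralateral values of 6.25, 4.66, 3.72, 4.93 and 4.34 FPKM. The gap was small in AA and widest in Q. In every vehicle control 5 members were higher in the injected hemisphere (background 7.0%), and in every R33-treated mouse with both libraries 4 were lower (background 5.52%). Within vehicle controls the median was 0.04 and within R33-treated mice -0.09, with 33 and 17 members higher in the injected hemisphere (background 55.7% and 50.9%).

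The difference itself was tested as an interaction of treatment with hemisphere. For R55 the median interaction was 0.27, and 48 of 55 members were above 0 (background 42.4%). No member passed (background 0.0%) or had an unadjusted p under 0.05 (background 2.4%), and with the mouse as a block Pcdhac2 (0.50, SE 0.20) and Pcdhac1 (0.57, SE 0.26) had one (background 5.73%), each at a limma adjusted p of 0.836. Without mouse Q the median interaction was 0.10. For R33 it was -0.11 with 14 of 55 above 0 (background 47.3%), and no unadjusted p under 0.05 was seen (background 1.03%).

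Genes around the family were set beside it. Of 18 genes for promoter choice and cluster chromatin, which include Ctcf, cohesin subunits and Smchd1, none passed in any comparison. Their median was -0.07 in R55 against vehicle and -0.04 in R33 against vehicle. In the former, Ctcf stood at 0.01 and Rad21 at 0.07. Only 1 of the 18, the cohesin regulator Pds5b, had an unadjusted p under 0.05 there (-0.21, SE 0.09, limma adjusted p 0.626). The background was 7.76% of all genes in either direction, so this count is not read as a result about the list. Of 23 genes for processing and signalling partners, such as Adam10, Ptk2 and the WAVE complex, none passed either, with medians of -0.02 and -0.03. In R55 against vehicle 1 of the 23 was higher and 1 lower at an unadjusted p under 0.05 (background 7.76% in either direction), and these are named for that reason. Psenen, a gamma-secretase subunit, was at 0.21 and Nlgn1, a synaptic adhesion partner, at -0.28, with limma adjusted p of 0.595 and 0.618.

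The 12 non-clustered protocadherins, which do not share these clusters or their promoters, were all below 0 against vehicle with either drug (background 43.6% for R55 and 44.7% for R33), with medians of -0.22 for R55 and -0.21 for R33. None passed, and 4 and 5 of them were lower at an unadjusted p under 0.05 (background 3.67% and 2.51%). Pcdh19, an adhesion gene linked to epilepsy, was at -0.61 and -0.53 and Pcdh17, a synaptic protocadherin, at -0.47 and -0.46. Nuclear-retained RNAs had medians of 0.01 and -0.07, and in the injected against the contralateral hemisphere all 9 were below 0 (background 50.7%), with a median of -0.25 and 5 lower at an unadjusted p under 0.05 (background 2.44%).

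Cell type markers were read in the same fits. In R55 against vehicle all 4 meningeal fibroblast markers were above 0 with a median of 0.58, and their summed level ran from 5.07 to 34.6 FPKM in vehicle, 7.35 to 49.2 FPKM in R33 and 6.47 to 39.1 FPKM in R55 libraries. The 5 neuronal markers had a median of 0.10 and the 5 cortical excitatory markers of -0.05, with summed neuronal levels of 1763 to 2790, 1878 to 2884 and 2100 to 2895 FPKM in the same groups. The medians for R55 against vehicle were 0.12 for interneurons, 0.09 for astrocytes, 0.15 for oligodendrocytes, -0.06 for their precursors, 0.12 for microglia, -0.16 for endothelial and -0.08 for mural cells. Choroid plexus (-0.78), hippocampal granule cell (-0.31) and striatal markers (-0.52) had medians below 0, and none of the genes on these lists passed the test. The listed blood markers were not analysed here. The part of tissue composition in the family's values was not tested.

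The mouse labels fall into a series with a single letter and a series with 2 letters, and each treatment holds both, without a stated meaning. Endothelial markers lay below their mean in all 9 libraries of the 2-letter series, from -0.99 to -0.35, and above it in 17 of 18 of the single-letter series. Microglial markers lay above their mean in all 9 and in 6 of 18. Meningeal fibroblast markers were above in 8 of 9 and 5 of 18, and interneuron markers in 8 of 9 and 6 of 18. Striatal markers were below in all 9 and in 9 of 18. The part of this split in the family's level by library was not tested. For the treatment comparisons, a fit with the label series as a covariate was among the alternatives given at the end, where no member passed. Within the single-letter series (3 mice per treatment) the median of the members was -0.07 for R55 against vehicle, 0.05 for R33 against vehicle and -0.14 for R55 against R33. Within the 2-letter series it was -0.22, -0.42 and 0.14, with 1 vehicle control (AH) and 2 mice of each drug, AD among them. The median of R55 against vehicle was below 0 in both series, where the medians over all genes were -0.002 and 0.08. The other comparisons changed sign. Members below 0 numbered 44 and 45 of 55, but members move together and the second count rests on a single vehicle control.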

How the data were processed

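Poly(A) RNA of cortex was sequenced by the authors with a stranded mRNA kit and aligned with HISAT2 to GRCm39. The counter and annotation are not given in the sources used here. The deposited table holds FPKM values that the authors computed for each gene and library. Of its 32 libraries, 5 were not used. The steps between low FPKM values gave whole fragments for 100.0% of values above 0 (tolerance 0.01 fragments), and thereby depth and gene length.

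Members were compared with limma 3.58.1 (R 4.3.3) on log2(FPKM + 0.1), fitted to all 18580 genes above 0 in at least 14 of 27 libraries, which is also the detection rule of the family, so all 55 members entered. Terms were treatment and hemisphere, with a variance prior that followed intensity, and p-values were adjusted over all genes tested (Benjamini-Hochberg). Fold changes on this scale understate the change of low genes. The test was checked on simulated data with independent libraries, which does not cover hemispheres that share a mouse. P-values treat hemispheres of a mouse as separate libraries. Hemispheres come from the same animal and so are paired by design; over 13 pairs their deviations from group means correlated at 0.264 on average (0.0227 to 0.440), over 0.1 in 10. No 2 of the 351 library pairs were identical. The study names 6 mice per group, and 4 or 5 are analysed here.

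Genes were named by rule: the C-type genes, the 3 highest and the lowest other member of each cluster, up to 3 members per direction and comparison with the widest change at an unadjusted p under 0.05, and the members at the detection limit. Outside this rule, Pcdhb6, Pcdhb7, Pcdhb16, Pcdhb18, Pcdhga7 and Pcdhgb2 were named after their values were seen. Pcdhb20 was named only as a neighbour in the order of levels. Members, gene lists and markers were chosen with earlier results of these data known. Coordinates are from GENCODE. Alternatives covered scaling, pseudocount, filters, limma-voom, GC and length trends, label series, hemisphere, the mouse as block and leaving out each mouse.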

Additional observations from a re-analysis of the deposited data

Results flagged for a closer look

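In each group of 4 or 5 libraries (treatment and hemisphere), the named members and the cluster sums were examined for a library far from the others, by Dixon's ratio of gap to range. Of 132 such checks 14 stood out (10.6%), and chance alone marks about 1 in 20 of independent checks. These checks are not independent, since members move together and cluster sums hold the same members, so no excess is read from the count. The injected hemisphere of R33-treated mouse AD was the lowest of its group in 6 of the 14. There Pcdha10 was at 0.233 FPKM, Pcdhb17 at 2.45 FPKM, Pcdhga12 at 1.49 FPKM and Pcdhgb8 at 0.325 FPKM. The beta cluster summed to 22.2 FPKM and the gamma cluster to 28.7 FPKM in the same library.

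In vehicle controls, Pcdhac2 was lowest in the injected hemisphere of AH at 5.72 FPKM. Pcdha8 was highest in the contralateral hemisphere of L at 0.230 FPKM. The contralateral hemisphere of J was lowest for Pcdhb17, at 3.74 FPKM, and for the gamma cluster sum, at 80.3 FPKM. Pcdhb1 was lowest in the injected hemisphere of M at 0.0588 FPKM, which rests on a few fragments.

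In drug-treated mice, Pcdhgc3 was highest in the contralateral hemisphere of R33-treated mouse N at 22.9 FPKM, and Pcdhb1 was highest in the injected hemisphere of R33-treated mouse O at 0.101 FPKM. Pcdhga6 was highest in the injected hemisphere of R55-treated mouse Q at 4.42 FPKM.

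Pcdhac2 was higher in the injected hemisphere of every R55-treated mouse and lower in that of every R33-treated mouse with both libraries. The injected minus contralateral log2 difference was 0.46 ± 0.43 (SD, n = 5 mice, 0.05 to 1.19) with R55 and -0.22 ± 0.23 (n = 4 mice, -0.55 to -0.06) with R33. The groups were 0.68 apart, and the difference was not tested. Among the 55 members only Pcdhac2 had such opposite signs in these groups, and it was named for that pattern. Of all genes tested, 1.07% had it, a similar share, so it is not read as a result about the family.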

How the results depend on the processing

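No member passed adjustment under any alternative run. The median of R55 against vehicle stayed below 0 in all 31 alternatives (-0.27 to -0.05, and -0.21 to -0.10 with 1 mouse left out), with 0 to 14 members at an unadjusted p under 0.05 and a lowest adjusted p of 0.209 (limma). R33 against vehicle ran from -0.24 to 0.03 with 1 mouse left out and was above 0 only without AD. R55 against R33 ran from -0.22 to 0.15 and had the other sign in 9 of 31 alternatives. The hemisphere comparison ran from -0.12 to 0.25 and had the other sign in 2 of 34, both within R33-treated mice. With the mouse as a replicate block of modelled correlation (0.299), the median of R55 against vehicle was -0.16 with 2 members in place of 6 at an unadjusted p under 0.05, and the block changed no call. With the fixed replicate block the hemisphere median was 0.08. Of the values of the 18 named members over the alternatives, 29 of 551 changed sign for R55 and 43 of 551 for R33 against vehicle. The fits without the injected library of AD, without the contralateral library of Q and without both, and the blocked fits within a treatment, were chosen after seeing the data. Each mouse was left out in turn, and the fits without mouse AD or Q were singled out after their values were seen. Without both libraries the median was -0.12 for R55 and -0.02 for R33, each against vehicle, -0.10 between the drugs and 0.14 between the hemispheres. Low fragment numbers limit Pcdhb1 and Pcdha8 most.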
